A study of Homo sapiens with 9 samples.

Results

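The PI3K, Akt and mTOR kinase pathway and the eIF4F genes of translation initiation were examined in HaCaT cells, an immortalized human keratinocyte line, after exposure to an extremely low frequency electromagnetic field (ELF-EMF). The set held 38 genes, against 15207 gene symbols on the array, 23 of the kinase pathway and 15 of eIF4F and its regulators, all taken by gene symbol. Symbols were those of the array's platform annotation or their current form through a unique synonym, so that the probe listed as FRAP1 was read as MTOR. Probes annotated with several symbols were matched to no gene and do not count towards the 15207. A named probe below thus carries a single symbol. Of the 38 genes, 33 had a named probe (44 of the 30968 probes), 26 had a value on at least 1 array, 19 had a probe with values in at least 2 biological samples, and 5 had a probe with values in both dye orientations of all 3 samples.

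Cells were synchronized by serum starvation and serum re-addition. Exposed cells were kept for 1 h in a field of 50 Hz and 1 mT, and non-exposed cells in an identical incubator without the field. RNA of both conditions shared each 2-colour Phalanx Human OneArray, and 3 biological samples (A, B and C) were each hybridized on 3 arrays, of which 2 carried exposed RNA in Cy5 and 1, the dye swap, carried it in Cy3, which made 9 arrays. The cells of an experiment were seeded from 1 flask. Samples A, B and C are labelled as biological replicates, and whether each came from its own culture is not spelled out for the arrays. The main p-values rest on the spread between these 3 samples, which the moderated test (limma) pooled over probes. In the dye-balanced fit below the pooling was complete, so that a gene's own spread did not enter. The deposited value of a probe was taken as a log2 ratio of Cy5 over Cy3. The table names neither, so log2 was inferred from the numbers themselves and Cy5 over Cy3 was assumed as the usual direction. Every sign below rests on that direction and on the labelled dyes. The dye swaps were turned, so that each ratio below is exposed over non-exposed, and a value of 0 means equal signal. The study lists most of its called genes as higher in exposed cells, the opposite of the direction of most dye-balanced ratios here. Among calls made from the Cy5 arrays alone, without the dye swaps, most were higher. Calls and ratios are unlike measures, and the median ratio of those arrays over all tested probes was still below 0. It was -0.07 for probes with full dye balance and -0.05 without that filter.

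PI3K is a lipid kinase that acts below growth factor receptors and recruits PDPK1 and Akt to the membrane. Akt inhibits the TSC1 and TSC2 complex, which holds back the GTPase RHEB, the direct activator of mTOR. mTOR complex 1 phosphorylates the S6 kinases and the 4E-BP repressors. Unphosphorylated 4E-BP binds the cap-binding protein eIF4E and keeps it out of eIF4F, the complex of eIF4E, the helicase eIF4A and the scaffold eIF4G that brings ribosomes to capped mRNA. These steps are controlled mainly by phosphorylation, which an RNA array does not measure. Many mRNAs of the translation machinery start with a cytosine and a run of pyrimidines (a 5′ terminal oligopyrimidine, or TOP), and their translation is known to follow mTOR activity.

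The first transcribed bases are shown for the 4 genes measured on all 9 arrays that the RefSeq promoter table holds. EIF4A2, measured on fewer arrays, is shown as well because its start is like that of a TOP mRNA. The other measured initiation factors in that table, EIF4E, EIF4E3, EIF4G1, EIF4G2, EIF4G3 and EIF4H, had no such start and are not shown. Each line gives 10 bases before and 20 bases from the annotated start, with the first 5 transcribed bases in capitals (RefSeq, GRCh38.p14).
EIF4B, chr12:53006446-53006475, + strand: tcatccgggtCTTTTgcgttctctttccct
EIF4A2, chr3:186783567-186783596, + strand: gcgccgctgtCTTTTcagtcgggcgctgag
EIF4A3, chr17:80147109-80147138, - strand: cggcagcggcACAGCgaggtcggcagcggc
MKNK2, chr19:2051225-2051254, - strand: gcgacgcgccCGGCTcctctcagcggcggt
PIK3R2, chr19:18153153-18153182, + strand: ggggcgggccAGGCCgctcggaaccgtggc
EIF4B, a cofactor that stimulates the helicase, and EIF4A2, one of the helicases, both started with a C followed by 4 pyrimidines on the transcribed strand. The other 3 genes shown did not. Such a start was found at 3 of the 52 annotated starts of the 36 members in the table (5.77%), against 4.07% of all 35116 starts in it. The third belonged to 1 of the 3 starts of PIK3CD, a catalytic subunit of PI3K that had no value on these arrays. The match is a description of these letters only.

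Arrays differed among themselves. Values were present for 1164 to 7250 probes per array, and the median log2 ratio of an array lay between -0.38 and 0.31. The dye swaps resembled each other (Pearson's r across probes 0.38 to 0.45), while arrays of opposite orientation hardly did so (r of -0.13 to 0.15, leaving out the second array of sample C). The second array of sample C correlated at -0.42 to -0.36 with the 3 turned dye swaps and at -0.19 to 0.10 with the arrays of its own orientation. It may be labelled in the wrong orientation, which was not settled. It was kept as its label has it, and if it were a dye swap every sign taken from it alone would turn. Main results are also given without it and with it read as a dye swap, both chosen after seeing the data. Of the keratinocyte markers with a named probe, 9 of 10 had a value, against 1 of 5 fibroblast, 1 of 4 melanocyte and 0 of 2 leukocyte markers. A ratio does not give a gene's level, and the sources used here do not name the step that emptied the other cells.

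The eIF4F genes were measured more completely than the kinases. All 13 eIF4F genes with a named probe had a value, against 13 of 20 kinase pathway genes, and 93.8% of the eIF4F probes had one, against 53.6% of the kinase probes and 40.6% of all probes with a gene symbol. The kinase pathway genes with a probe and no value were TSC1, PIK3CB, PIK3CD, PIK3R1, AKT2 and the insulin receptor substrates IRS1 and IRS2. The 5 members not analysed here for want of a probe carrying their symbol alone were the mTOR complex subunits RPTOR and RICTOR, the rapamycin-binding protein FKBP1A, EIF4E2 and EIF4A1. The number of member probes with a value ranged from 5 on the dye swap of sample A to 24 on the second array of that sample. The map of ratios by array shows that 1 kinase probe had a value on all 9 arrays, against 4 eIF4F probes.

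**Figure D1:**
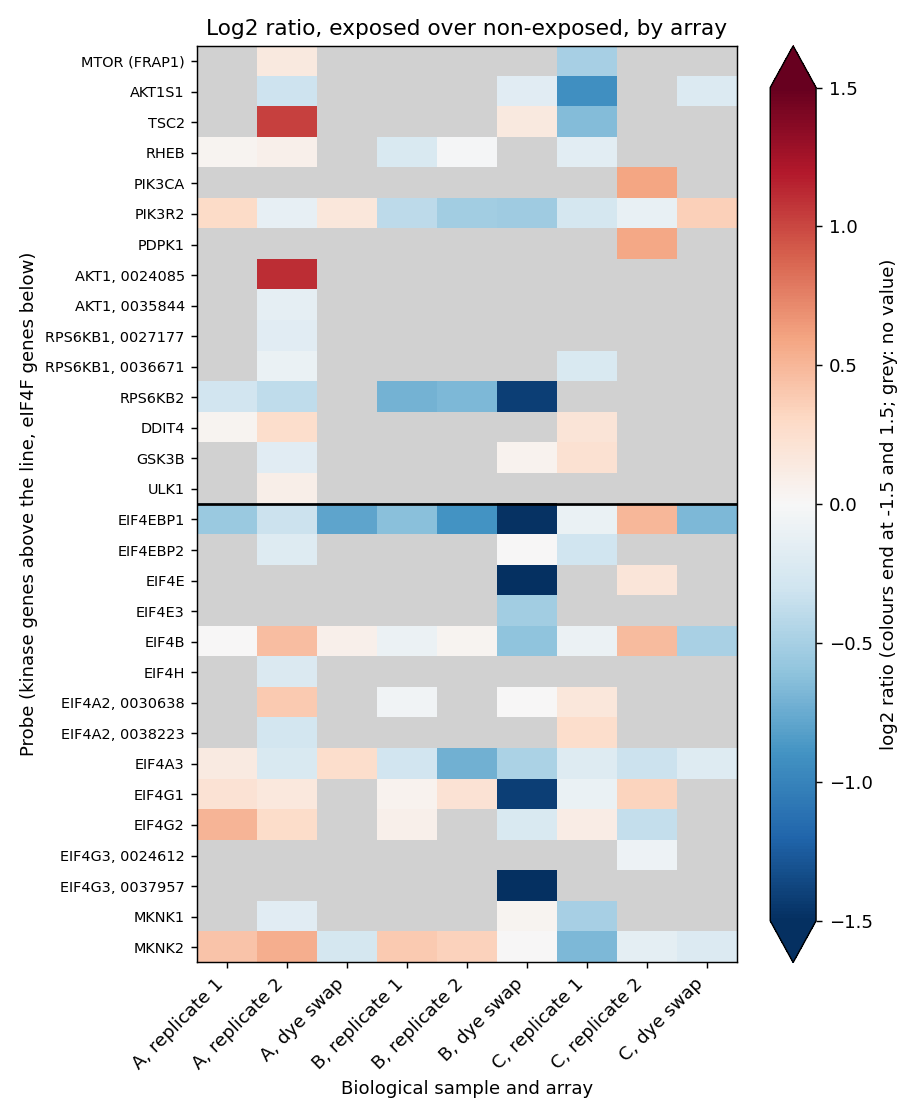
Log2 ratio of exposed over non-exposed cells for the 30 member probes with a value, one row per probe and one column per array; blue is lower and red higher in exposed cells, and grey marks no value. EIF4EBP1 is blue on 8 of 9 arrays, and the darkest blue cells lie in the dye swap of sample B.

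In the dye-balanced test, 1 of the 5 members passed, the translation repressor EIF4EBP1 (4E-BP1), which was lower in exposed cells. Arrays with exposed RNA in Cy5 were averaged within a sample and then averaged with the turned dye swap, and the 3 sample values were fitted with limma over the 570 probes that had both orientations in all samples (threshold 0.05 after Benjamini-Hochberg adjustment). In this fit 3.86% of the probes passed as lower and 0 as higher, and an unadjusted p under 0.05 was found for 116. After median centring of every array, 4 probes passed as higher and 13 as lower, and with quantile normalization 1 as higher and 9 as lower. With the Cy5 arrays alone the balance turned, with 14 as higher and 5 as lower. A single gene out of 5 members cannot be read against that share. The median log2 ratio of the 570 probes was -0.12, so a small negative ratio was the usual value.

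EIF4EBP1 had log2 ratios of -0.56, -0.32 and -0.79 (dye swap) on the arrays of sample A. In sample B the ratios were -0.63, -0.90 and -1.48 (dye swap). In sample C they were -0.10, 0.50 and -0.67 (dye swap). It was thus below 0 on 8 of 9 arrays, and the exception was the second array of sample C. The sample values were -0.61, -1.12 and -0.23, with a mean of -0.66 ± 0.45 (SD, n = 3; 95% interval -0.96 to -0.36, limma adjusted p = 0.0023), which is 0.634-fold. Set against the median of all 570 probes, the mean was -0.53. Only 4 of the 570 probes had a lower mean.

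The size of the EIF4EBP1 change depended on the orientation and on sample B. The arrays with exposed RNA in Cy5 averaged -0.33, and the turned dye swaps -0.98 (adjusted p of the dye effect 0.0984). Arrays of 1 sample differed by as much (SD 0.443) as the samples did (SD 0.446). Limma used a spread common to all probes, with a standard error of 0.154. On its own spread over the 3 samples the gene had an adjusted p of 0.601, and without sample B its log2 ratio was -0.42 (adjusted p = 0.343). Of 13 alternatives under the rule of both orientations in all samples, 7 kept the call, with adjusted p from 0.000625 to 0.633 over all 13. Of the 6 that did not, the fit with trend and robust options (adjusted p = 0.394) set the spread by the mean ratio, the tested quantity itself. The 7 include leaving out the second array of sample C and reading it as a dye swap. Both were chosen after seeing the data, and they gave the smallest adjusted p. The rule was applied anew for them, so that they covered 562 and 661 probes. Without the second array of sample C the log2 ratio was -0.71 (adjusted p = 0.000625), and with that array read as a dye swap it was -0.69 (adjusted p = 0.00098).

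**Figure D2:**
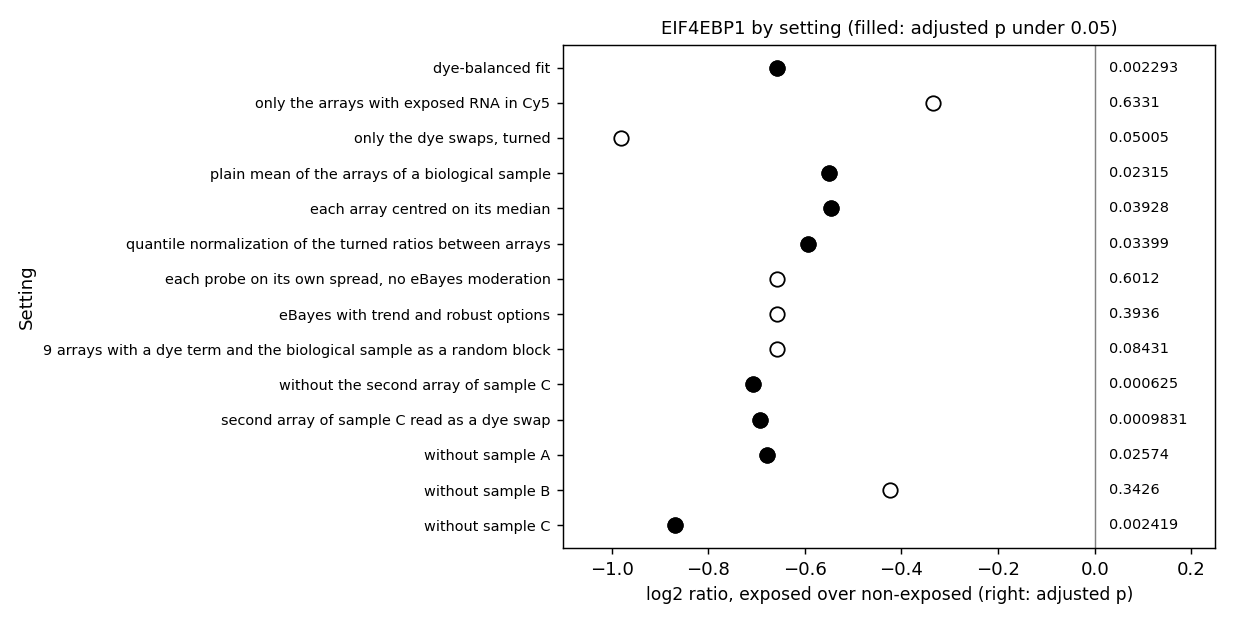
Log2 ratio of EIF4EBP1 (exposed over non-exposed) in the dye-balanced fit and under each alternative, with the adjusted p at the right; filled points passed 0.05. Every point lies below 0, between -0.98 and -0.33, and 7 of the 13 alternatives passed. Among these 7 are both treatments of the second array of sample C, which were chosen after seeing the data.

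The other 4 members of the dye-balanced fit did not pass. EIF4A3, an eIF4A relative that is a core protein of the exon junction complex, had ratios of 0.13, -0.23 and 0.27 (dye swap) in sample A. Its ratios were -0.29, -0.72 and -0.47 (dye swap) in sample B and -0.20, -0.32 and -0.20 (dye swap) in sample C. It was below 0 on all arrays of samples B and C, and its mean was -0.20 ± 0.30 (SD, n = 3; interval -0.50 to 0.10, adjusted p = 0.476). EIF4B had 0.01, 0.46 and 0.08 (dye swap) in sample A, -0.09, 0.04 and -0.60 (dye swap) in sample B, and -0.09, 0.48 and -0.49 (dye swap) in sample C. Its highest value came from the second array of sample C, its sign differed between orientations, and its mean was -0.10 ± 0.24 (interval -0.40 to 0.20, adjusted p = 0.757).

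MKNK2, a kinase that phosphorylates eIF4E on the eIF4G scaffold, had ratios of 0.43, 0.54 and -0.26 (dye swap) in sample A, 0.39, 0.35 and 0.01 (dye swap) in sample B, and -0.68, -0.14 and -0.20 (dye swap) in sample C. Sample C was below 0 on all its arrays and samples A and B mostly above, and the mean was -0.0019 ± 0.27 (interval -0.30 to 0.30, adjusted p = 0.997). PIK3R2, a regulatory subunit of PI3K, was the only kinase pathway gene with full dye balance. It had 0.28, -0.13 and 0.17 (dye swap) in sample A, -0.40, -0.53 and -0.54 (dye swap) in sample B, and -0.26, -0.11 and 0.36 (dye swap) in sample C. It was low in sample B on all arrays and of mixed sign elsewhere, with a mean of -0.10 ± 0.35 (interval -0.40 to 0.20, adjusted p = 0.765). The SD of PIK3R2 between samples was 0.348, against a median of 0.223 over the 570 probes.

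**Figure D3:**
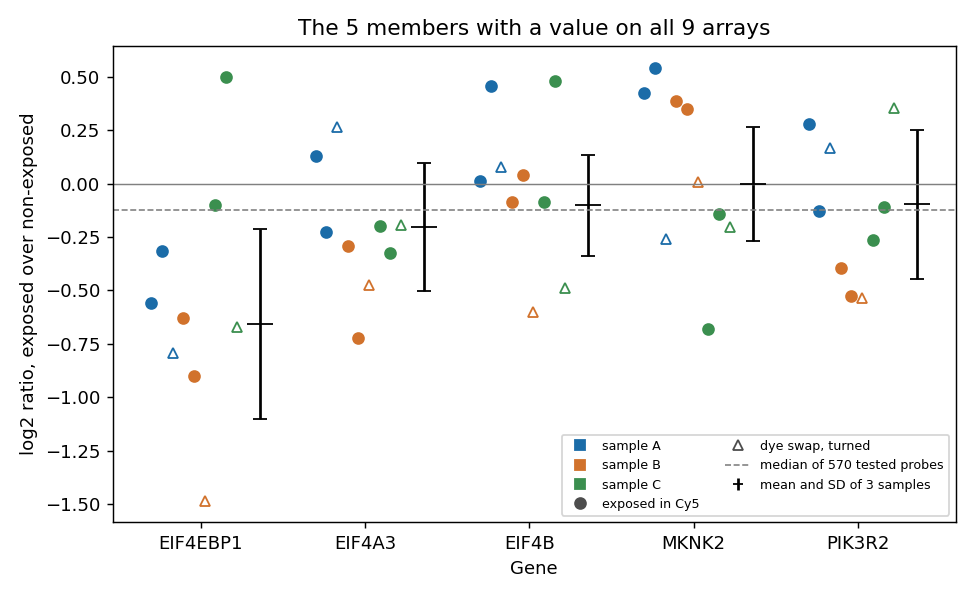
Log2 ratio (exposed over non-exposed) of the 5 members measured on all 9 arrays, coloured by biological sample; circles are arrays with exposed RNA in Cy5, triangles turned dye swaps, and bars the mean and SD of 3 samples. EIF4EBP1 is the only gene whose mean (-0.66) lies more than its SD below the median of the tested probes (-0.12).

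The other 14 members with values in at least 2 samples lacked full dye balance and were fitted with limma over 5688 probes, where a sample with 1 orientation keeps its dye effect. In that fit 0% of the probes passed in either direction, and 216 had an unadjusted p under 0.05. With the Cy5 arrays alone 46 of 5060 probes passed as higher and 10 as lower, and without sample B 18 of 5070 as higher and 5 as lower, with 0 member probes called in either. Of the 20 member probes 0 passed, and 2 had an unadjusted p under 0.05, RPS6KB2 and EIF4EBP1, both with a limma adjusted p of 0.883. Of the 20 probes 15 were below 0, against 65.8% of the 5688. The values below are therefore descriptions of genes for which this fit showed no difference, each with its 95% interval. The intervals use the moderated spread of limma, which draws on other probes, and not the gene's own spread alone.

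At the core of the kinase pathway, MTOR (listed as FRAP1) had a value on 2 arrays only, 0.15 on the second array of sample A and -0.50 on the first of sample C. The samples had opposite signs, with a mean of -0.18 ± 0.46 (SD, n = 2; interval -0.81 to 0.46, adjusted p = 0.910). For mTOR RNA the study reports a rise by qRT-PCR that did not reach significance. AKT1S1, the Akt substrate PRAS40 that inhibits mTOR complex 1, had -0.31 on the second array of sample A. It had -0.17 on the dye swap of sample B, and -0.92 and -0.20 on the first array and the dye swap of sample C. It was below 0 on all 4 arrays with a value, in both orientations, with a mean of -0.35 ± 0.20 (n = 3; interval -0.76 to 0.07, adjusted p = 0.883).

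TSC2, the GTPase-activating protein for RHEB, had 1.03 on the second array of sample A, 0.14 on the dye swap of sample B and -0.65 on the first array of sample C. These span the widest range of sample values among the kinase pathway genes, and the mean was 0.17 ± 0.84 (n = 3; interval -0.57 to 0.92, adjusted p = 0.928). RHEB had 0.04 and 0.07 on both Cy5 arrays of sample A, -0.23 and -0.02 on those of sample B, and -0.16 on the first array of sample C. All 5 lay close to 0, with a mean of -0.07 ± 0.12 (interval -0.47 to 0.32, adjusted p = 0.941). DDIT4 (REDD1), a stress-induced inhibitor of mTOR complex 1, had 0.04 and 0.26 in sample A and 0.19 on the first array of sample C. It was above 0 on its 3 arrays, which had exposed RNA in Cy5, with a mean of 0.17 ± 0.025 (n = 2; interval -0.36 to 0.71, adjusted p = 0.897).

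The S6 kinases lay below 0 wherever they had a value. RPS6KB2 (S6K2) had -0.28 and -0.38 on the Cy5 arrays of sample A. In sample B it had -0.71 and -0.67 on the Cy5 arrays and -1.41 on the dye swap. It was negative on all 5 arrays, lower in sample B than in sample A, and without a value in sample C. The mean was -0.69 ± 0.51 (n = 2; interval -1.35 to -0.04, adjusted p = 0.883). In the fit of the 9 arrays with a dye term it was -0.93 (adjusted p = 0.0467), the only one of the fits run in which it passed. That value rests on 1 dye swap, the array of sample B with the most probes below -1, and cannot be told apart from that single hybridization. RPS6KB1 (S6K1) had 2 probes with a value. One had -0.10 on the second array of sample A and -0.23 on the first of sample C, a mean of -0.16 ± 0.10 (n = 2; interval -0.70 to 0.37, adjusted p = 0.897), and the other -0.17 on the second array of sample A. GSK3B, a kinase that Akt inhibits, had -0.17, 0.05 (dye swap) and 0.23 on 1 array each of samples A, B and C, with a mean of 0.04 ± 0.20 (n = 3; interval -0.38 to 0.45, adjusted p = 0.969).

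Among the repressor and the cap-binding protein it holds, EIF4EBP2, the paralogue of EIF4EBP1, had -0.19 on the second array of sample A, 0.01 on the dye swap of sample B and -0.30 on the first array of sample C. Its mean was -0.16 ± 0.16 (n = 3; interval -0.57 to 0.24, adjusted p = 0.883), and the difference from EIF4EBP1 was not tested. EIF4E itself had a value on 2 arrays, -1.66 on the dye swap of sample B and 0.19 on the second array of sample C. The signs were opposite, and the mean of -0.74 ± 1.31 (n = 2; interval -1.84 to 0.36, adjusted p = 0.883) rested on the dye swap of sample B. Without the second array of sample C its only value was -1.66. With that array read as a dye swap both values were below 0, with a mean of -0.92.

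The scaffold EIF4G1 had 0.22 and 0.16 on the Cy5 arrays of sample A and 0.06 and 0.21 on those of sample B. It had -0.10 and 0.33 on those of sample C, and -1.41 on the dye swap of sample B, its only dye swap with a value. Of its 6 Cy5 arrays 5 were thus above 0, and the dye swap was far below. The mean was -0.11 ± 0.46 (n = 3; interval -0.63 to 0.41, adjusted p = 0.935), and with the Cy5 arrays alone it was 0.15. In the fit of the 9 arrays with a dye term it was -0.63 (adjusted p = 0.0778), and the dye effect was 0.78 (adjusted p = 0.0065). As 1 dye swap only had a value, a dye effect and that single hybridization cannot be told apart. The study, with its own array test, lists EIF4G1 as up-regulated in exposed cells and reports the same by qRT-PCR. EIF4G2, a related scaffold that lacks the eIF4E-binding part, had 0.51 and 0.27 in sample A, 0.07 and -0.23 (dye swap) in sample B, and 0.12 and -0.36 on the Cy5 arrays of sample C. Its sign was mixed in samples B and C, with a mean of 0.07 ± 0.28 (interval -0.38 to 0.51, adjusted p = 0.952).

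EIF4A2 had 2 probes with a value. The first had 0.40 on the second array of sample A, -0.05 and 0.01 (dye swap) in sample B, and 0.17 on the first array of sample C, with a mean of 0.18 ± 0.21 (n = 3; interval -0.24 to 0.60, adjusted p = 0.883). The second had -0.28 on the second array of sample A and 0.27 on the first of sample C, with a mean of -0.0066 ± 0.39 (n = 2; interval -0.61 to 0.60, adjusted p = 0.996). The probes disagreed in sign in sample A, on the same array. MKNK1, the other eIF4E kinase, had -0.17, 0.04 (dye swap) and -0.50 on 1 array each of samples A, B and C, with a mean of -0.21 ± 0.27 (n = 3; interval -0.65 to 0.23, adjusted p = 0.883).

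The remaining 7 members had no probe with values in 2 samples and entered no fit. The second array of sample C, whose orientation is in doubt, gave 0.60 for the PI3K catalytic subunit PIK3CA and 0.58 for PDPK1, the kinase that phosphorylates Akt. The second array of sample A gave 1.11 and -0.13 for 2 probes of AKT1, 0.09 for the autophagy kinase ULK1 and -0.22 for EIF4H, a helicase cofactor. The dye swap of sample B gave -0.53 for EIF4E3, and 2 probes of the scaffold EIF4G3 had -1.81 on that array and -0.08 on the second array of sample C. These values came from 3 arrays only, and each sign was that of 1 hybridization. On the dye swap of sample B, 5 of the 17 member probes with a value were below -1 (RPS6KB2, EIF4EBP1, EIF4E, EIF4G1 and 1 probe of EIF4G3), where 21.6% of all 4201 probes with a value were. On the other 8 arrays 0 member probes were below -1.

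The kinase pathway and its translation targets were compared as lists. The 10 eIF4F genes with values in at least 2 samples had a median log2 ratio of -0.14 (range -0.74 to 0.08), with 2 genes above and 8 below 0. The 9 kinase pathway genes had a median of -0.10 (range -0.69 to 0.17), with 3 above and 6 below. The median over all 5688 probes was -0.09. The difference of the medians, eIF4F minus kinase, was -0.04, and within samples A, B and C it was 0.05, -0.05 and 0.01, an SD of 0.048. The lists thus differed by less than the spread between samples, and both lay close to all probes.

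Both lists moved with the whole array from sample to sample. In sample A the median was 0.11 for the eIF4F genes, 0.06 for the kinase pathway genes and 0.05 for all probes. In sample B it was -0.19 for the eIF4F genes, -0.15 for the kinase pathway genes and -0.27 for all probes. In sample C it was -0.19 for the eIF4F genes, -0.20 for the kinase pathway genes and -0.10 for all probes. Sample A was above 0 and samples B and C below for both lists, as for all probes. Without the second array of sample C the medians were -0.16 for the eIF4F genes and -0.11 for the kinase pathway genes. With that array read as a dye swap the medians were -0.16 for the eIF4F genes and -0.13 for the kinase pathway genes. With the Cy5 arrays alone they were 0.07 for the eIF4F genes and -0.16 for the kinase pathway genes, a difference of 0.24, so that the direction of the eIF4F list turned with the orientation. With each array centred on its median they were -0.03 for the eIF4F genes and 0.01 for the kinase pathway genes.

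**Figure D4:**
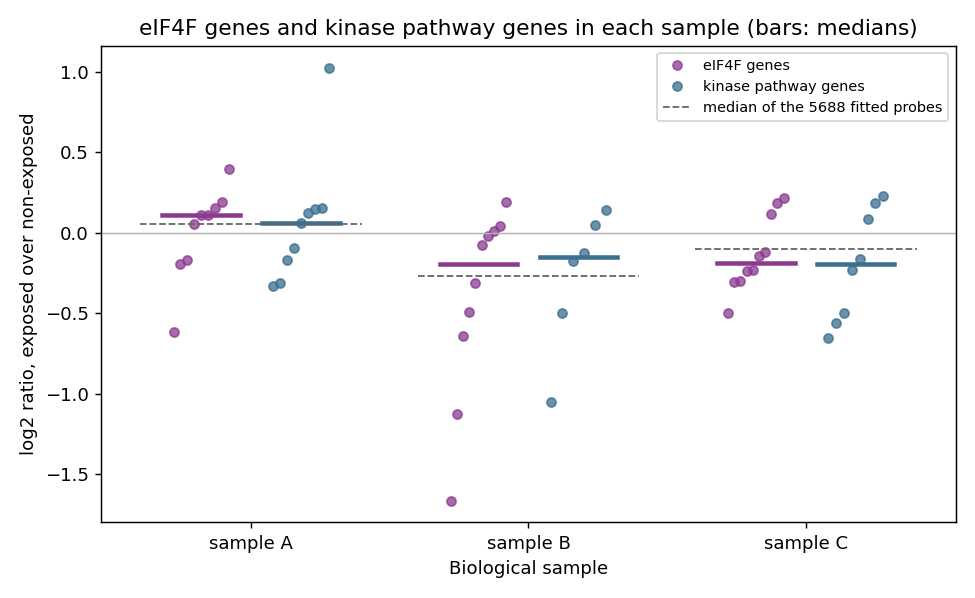
Log2 ratio (exposed over non-exposed) of each eIF4F gene (purple) and kinase pathway gene (blue) with values in at least 2 samples, by biological sample; thick bars are list medians and dashed lines the median of the 5688 fitted probes. The bars of both lists lie side by side in each sample, with differences (eIF4F minus kinase) of 0.05, -0.05 and 0.01 in samples A, B and C.

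Of 68 further genes of the same pathways (receptors, phosphatases, mTOR complex and amino acid sensing genes, AMPK subunits and translation regulators), 31 had a value and 25 were fitted. None passed the limma test, 0 had an unadjusted p under 0.05, 13 were above and 12 below 0, and the median was 0.01. RPS6KA1, a ribosomal S6 kinase below ERK, had -0.54 ± 0.74 (SD, n = 3), and the AMPK subunit PRKAG1 -0.23 ± 0.24. The growth factor receptor EGFR had -0.27 ± 0.56 (n = 3). For RPS6KA1, PRKAG1 and EGFR the lowest ratio was that of the dye swap of sample B (-1.38, -1.06 and -0.91). The Akt-controlled transcription factor FOXO1 had 0.42 ± 0.29 (n = 2), the phosphatase subunit PPP2CB 0.36 ± 0.36 (n = 2), and PAIP2, an inhibitor of the poly(A)-binding protein, 0.26 ± 0.20 (n = 3). These 6 had the smallest p, each with an adjusted p of 0.883. Only RRAGA (0.01 ± 0.14, adjusted p = 0.990) and RB1CC1 (0.08 ± 0.25, adjusted p = 0.819) were measured with full dye balance.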

How the data were processed

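The authors amplified and labelled RNA, scanned the 2-colour arrays and normalized them in ScanArray Express. They deposited a value for part of the probes on each array, taken here as the log2 of Cy5 over Cy3. Neither the scale nor the direction is named with the values. The normalization method and the build are not given in the sources used here. The scale was read from the values: as log2, 86.6% to 99.1% of an array's ratios lay within 0.05 of whole thousandths, against at most 10.3% with other bases. The table holds no intensities. Signal over background is therefore unknown, and neither background correction, a filter on dim probes nor a slide block could be tried. The number of arrays limits the precision.

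Arrays of 1 sample were combined into 1 dye-balanced value and fitted with limma 3.58.1 in R 4.3.3 (intercept, eBayes, two-sided, Benjamini-Hochberg over all probes of the fit, threshold 0.05). The fit was tried on simulated data with the same spread for every probe and no added spread between samples. Such data cannot show whether pooling the spread suits these arrays. The study's SAM was not run. List medians averaged the probes of a gene and carry no test. All members were named, and of the other pathway genes the 6 with the smallest p. Alternatives were each orientation alone, a plain mean, centring, quantile normalization, other spreads, a 9-array fit with a dye term, other filters and leaving out samples. Members and lists were chosen with earlier results of these data known.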

Additional observations from a re-analysis of the deposited data

Results flagged for a closer look

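EIF4G1 had 1 array far from its others: the turned dye swap of sample B gave a log2 ratio of -1.41. The other 6 arrays with a value lay between -0.10 and 0.33, so that the gap took 75.2% of its range. Those 6 all had exposed RNA in Cy5, so the gap also lies between orientations, and a dye effect cannot be told apart from that array. Of 11 member probes with at least 4 arrays, this was the only one, and chance marks about 1 in 20 groups. The array's median was -0.38 over all probes.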

How the results depend on the processing

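The single member called became 0 with the Cy5 arrays alone, the dye swaps alone, each probe on its own spread, trend and robust options (on the mean ratio, as no intensities are in the table), the 9 arrays with a dye term, and without the orientation filter; leaving out each sample gave 0 to 1. Without that filter, the 9-array fit called 1 member against 0, and leaving out samples gave 0. The 22 calls among all probes became 10 with the dye swaps alone, 11 with the plain mean, 10 with quantile normalization, 0 on their own spread, 0 with trend and robust options, 1 with the dye term, 38 without the second array of sample C, 36 with it read as a dye swap (both chosen after seeing the data) and 3 to 10 without 1 sample. Centring moved the median of the tested probes to -0.02. The kinase median ranged from -0.23 to -0.050 and the eIF4F median from -0.23 to -0.027 without 1 sample, and the eIF4F median was 0.074 on the Cy5 arrays alone. The difference of medians was 0.24 on the Cy5 arrays, -0.15 on the dye swaps, 0.034 with the plain mean, -0.24 over genes with any value, and -0.025 to 0.023 without 1 sample. The dye-swap difference rests on 2 kinase pathway genes and 4 eIF4F genes only.

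Of 20 member probes, 11 turned their sign under at least 1 alternative, in 22 of 239 values. Centring turned RHEB (0.030), PIK3R2 (0.015), EIF4B (0.011), the second EIF4A2 probe (0.034) and MKNK2 (0.11). The Cy5 arrays alone turned EIF4E (0.19), EIF4B (0.14), EIF4G1 (0.15) and MKNK2 (0.15). The plain mean (0.048) and quantile normalization (0.024) turned MKNK2, and the dye term turned EIF4G2 (-0.047). Without 1 sample the log2 ratio ranged from -0.50 to 0.15 for MTOR (FRAP1), -0.26 to 0.58 for TSC2, -0.21 to 0.10 for PIK3R2, -0.060 to 0.14 for GSK3B, -1.66 to 0.19 for EIF4E, -0.23 to 0.0047 for EIF4B, -0.28 to 0.27 for the second EIF4A2 probe, -0.26 to 0.15 for EIF4G1, -0.10 to 0.16 for EIF4G2 and -0.10 to 0.15 for MKNK2. The causes were not tested. Without the filter, the dye swaps alone were fitted over 1450 probes, and 0 passed in either direction. That fit is not among the 239 values. Both conditions share each array, so that every fit compares them as pairs.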
